A study of Mus musculus with 2 samples.

Results

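The miR-101 family of the mouse is annotated as 3 genes, Mir101a, Mir101b and Mir101c, and their levels were measured in gastrocnemius, the large muscle of the calf. The genes were chosen by their GENCODE M21 symbols, with their counts in both libraries already known, so the levels are given as a description without a test. They are 3 of the 2202 genes in each table. The samples were 2 microRNA libraries of 1 group, biological replicates 2 and 1, from male B6CASTF1/J mice aged 2 months. This strain is the first-generation hybrid of C57BL/6J and CAST/EiJ, and each library carries the label of a mouse of its own. The labels name no treatment, and no second condition was analysed here. The assigned total was 2272132 counts in replicate 2, against 638779 in replicate 1. Levels are given as CPM, counts per 1000000 assigned counts of the library.

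A microRNA gene is transcribed as a longer RNA that folds into a hairpin, from which short 5p and 3p strands are cut. The retained strand guides Argonaute proteins to messenger RNAs that match its seed, bases 2 to 8. miR-101 is best known for repressing Ezh2, the methyltransferase of Polycomb repressive complex 2 that silences genes by marking histone H3. In muscle precursor cells Ezh2 keeps genes of differentiation silent. Mouse miR-101a also represses Ptgs2, which encodes cyclooxygenase 2.

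The mature strands show how far the 3 genes can be told apart by a short read. They are printed 5′ to 3′ as RNA from RefSeq (GRCm38.p6), with the seed in capitals, and miR-144-3p is added as a relative in seed.
miR-101a-3p: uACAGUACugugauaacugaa
miR-101b-3p: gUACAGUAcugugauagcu
miR-101c: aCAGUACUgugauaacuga
miR-101a-5p: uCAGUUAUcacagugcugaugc
miR-101b-5p: uCGGUUAUcaugguaccgaugcu
miR-144-3p: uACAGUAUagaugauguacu

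As annotated, miR-101a-3p, miR-101b-3p and miR-101c have 3 different seeds: the 5′ end of miR-101b-3p lies 1 base upstream of that of miR-101a-3p, and the 5′ end of miR-101c 1 base downstream of it. All of them hold the same core of 14 bases, acaguacugugaua, which starts at base 2 of miR-101a-3p, base 3 of miR-101b-3p and base 1 of miR-101c. When the Mir101b precursor was read in the register of miR-101a-3p, 20 of 21 bases were the same and the seed was ACAGUAC in both. The only substitution was A16G, with positions counted from the 5′ end of miR-101a-3p. In the same register Mir101c matched at 19 of 21 bases, with the substitutions U1C and A21U at the ends. The 5p strands were less alike, with 17 of 22 bases the same between Mir101a and Mir101b.

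The annotated precursors, printed 5′ to 3′ as DNA from the GENCODE M21 transcripts with the mature strands in capitals, show the strands in place and what surrounds the core of Mir101c.
Mir101a: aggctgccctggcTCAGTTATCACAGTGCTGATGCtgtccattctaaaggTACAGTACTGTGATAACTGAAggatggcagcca
Mir101b: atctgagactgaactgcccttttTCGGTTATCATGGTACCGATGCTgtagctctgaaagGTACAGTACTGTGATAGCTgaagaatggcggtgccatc
Mir101c: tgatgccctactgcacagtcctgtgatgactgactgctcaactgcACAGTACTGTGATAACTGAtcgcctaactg

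Mir101a and Mir101b were identical at 69.7% of 99 aligned positions and shared a longest run of 20 bases. Mir101a and Mir101c were identical at 62.9% of 89 aligned positions and shared a run of 19 bases, which is the whole of miR-101c. The mature miR-101c sequence therefore lies inside both genes, and a read of exactly these bases matches both. Of the 65 stretches of 19 bases in Mir101a, 2 also occurred in Mir101b and 1 in Mir101c. The full miR-101a-3p, miR-101a-5p, miR-101b-3p and miR-101b-5p sequences each occurred in 1 gene of the table.

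The predicted folds of the precursors differed. RNAfold gave a minimum free energy of -47 kcal/mol for Mir101a, with 20 of the 21 bases of miR-101a-3p paired. Mir101b had -39.6 kcal/mol, with 18 of the 19 bases of miR-101b-3p paired. Mir101c had -16.1 kcal/mol, with 11 of the 19 bases of miR-101c paired. Within its 75 bases, Mir101c carries a second copy of the mature stretch in the same direction, acaguccugugaugacuga, which starts at base 15 and matches at 17 of 19 bases, with A6C and A14G counted from the 5′ end of miR-101c. The best such match was 10 of 21 bases in Mir101a and 9 of 19 in Mir101b.

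The genes lie on 3 chromosomes of mm10, and none has another microRNA gene of the table within 10 kb. Mir101a (ENSMUSG00000065451.1) is at chr4:101346945-101347027 on the minus strand, in exon 2 of the long noncoding RNA gene E130102H24Rik on the same strand. Mir101b (ENSMUSG00000065556.1) is at chr19:29135279-29135375 on the plus strand, in intron 8 of Rcl1, which encodes a protein of ribosomal RNA processing and lies on the same strand. Mir101c (ENSMUSG00000106183.1) is at chr9:3038669-3038743 on the minus strand, outside any other annotated gene and 353 bases from the predicted gene Gm10715. Levels of E130102H24Rik and Rcl1 were not measured by this assay.

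Mir101b and Mir101a were both measured at moderate levels in both libraries, and Mir101c had no count in either. Mir101b had 3323 counts in replicate 2 and 1506 in replicate 1, which is 1463 CPM (exact Clopper-Pearson 95% interval 1413 to 1513) in replicate 2 and 2358 CPM (2240 to 2480) in replicate 1. Its mean was 1910 ± 633 CPM (SD, n = 2). Mir101a had 2188 counts in replicate 2 and 1002 in replicate 1, which is 963 CPM (923 to 1004) in replicate 2 and 1569 CPM (1473 to 1669) in replicate 1. Its mean was 1266 ± 428 CPM (SD, n = 2). For both genes the interval of replicate 2 lay below that of replicate 1, and within each library Mir101b lay above Mir101a with no overlap of intervals. Across libraries their SDs overlapped. Intervals cover counting error only and hold no variation between mice or preparations. Where PCR copies of a molecule were counted as separate reads, the intervals are too narrow even for that.

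Together the genes held 2425 CPM in replicate 2 and 3926 CPM in replicate 1, a mean of 3176 ± 1061 CPM (SD, n = 2). This was 0.243% of assigned counts in replicate 2 and 0.393% in replicate 1. Reads of this assay span a mature strand rather than tile the gene, so CPM was not divided by gene length. The tables give 1 count per gene and do not separate 5p from 3p strands. Most reads of the libraries, 74.4% in replicate 2 and 75.2% in replicate 1, matched several places and were not assigned. Whether miR-101 reads are among them was not tested.

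For reads that match Mir101c alone, its 0 counts allow, by the limit of 3 counts, a level of 1.32 CPM in replicate 2 and of 4.70 CPM in replicate 1. For reads of the mature miR-101c, which also match Mir101a, they set no limit. No count was seen on the opposite strand of any of the 3 genes in either library, and counts that ignored strand were the same as those on the gene's strand.

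**Figure D1:**
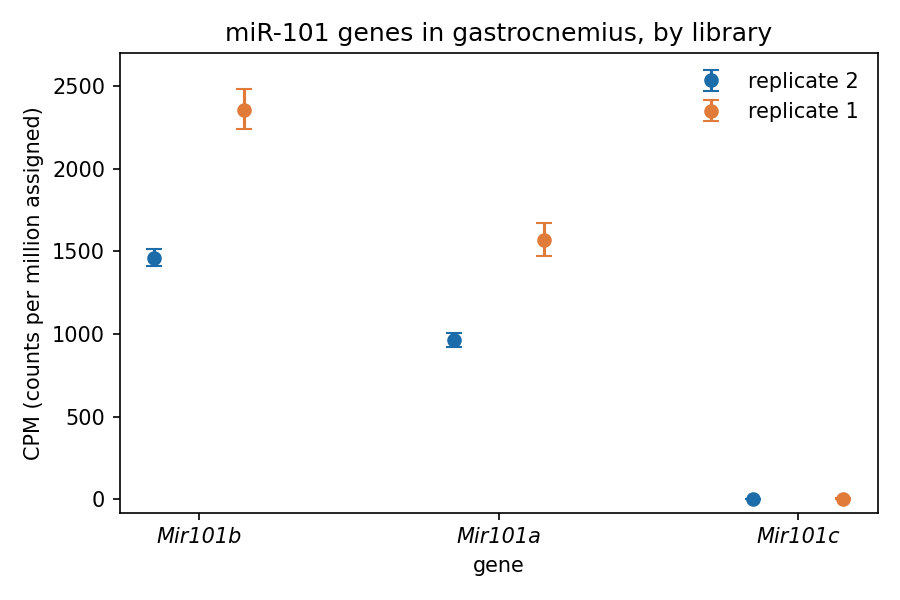
CPM (vertical axis) of Mir101b, Mir101a and Mir101c in replicate 2 and replicate 1, with exact Clopper-Pearson 95% intervals of counting error as bars. Mir101b and Mir101a are lower in replicate 2 than in replicate 1 (1463 and 2358 CPM for Mir101b, 963 and 1569 CPM for Mir101a), and Mir101c is at 0 in both.

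The proportion between Mir101b and Mir101a was nearly the same in both libraries, although both levels differed. Mir101b made up 60.3% of the family's counts in replicate 2 (exact Clopper-Pearson 95% interval 59.0 to 61.6%) and 60.0% in replicate 1 (58.1 to 62.0%), a mean of 60.2% ± 0.177 (SD, n = 2). There were 1.519 counts of Mir101b for each count of Mir101a in replicate 2 (1.439 to 1.604) and 1.503 in replicate 1 (1.387 to 1.630). The intervals overlapped, so no difference in proportion was detectable at this depth. A proportion within a library does not depend on how the libraries are scaled. Since Mir101a and Mir101b share a run of 20 bases, and Mir101a and Mir101c one of 19, reads that lie wholly within these runs match more than 1 gene. The counts and their proportion are uncertain at least to that degree. How many mismatches were allowed is not known. Mir101b differs from the 21 bases of miR-101a-3p at 1 base, so with a mismatch allowed full-length reads could match both genes as well.

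Set against replicate 1, both genes were lower in replicate 2 by close to the same factor. The ratio of replicate 2 over replicate 1 was 0.614 for Mir101a (exact conditional 95% interval 0.569 to 0.662), a log2 ratio of -0.70. For Mir101b it was 0.620 (0.584 to 0.660), a log2 ratio of -0.69. Of the 311 genes that reached 10 counts in the libraries together, 23 had a lower log2 ratio than both members, 2 lay between them and 284 were above both. The median log2 ratio of the 311 was 0.05 and the median absolute log2 ratio was 0.38.

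Both measured members were thus past 1.5-fold and had an interval wholly below 1, and the third had no counts to compare. Among the 311 genes, 36 (11.6%) were lower in replicate 2 by over 1.5-fold and 102 (32.8%) were past that fold in either direction. The counting interval lay below 1 for 61 genes (19.6%) and left out 1 in either direction for 138 (44.4%). These 2 libraries are replicates of 1 group, so the ratio describes these libraries and neither the mice nor a condition. Around the members' own level, among 52 genes with a mean of 500 to 5000 CPM, a range chosen after the values were seen, 5 were lower in replicate 2 by over 1.5-fold and 5 were higher.

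**Figure D2:**
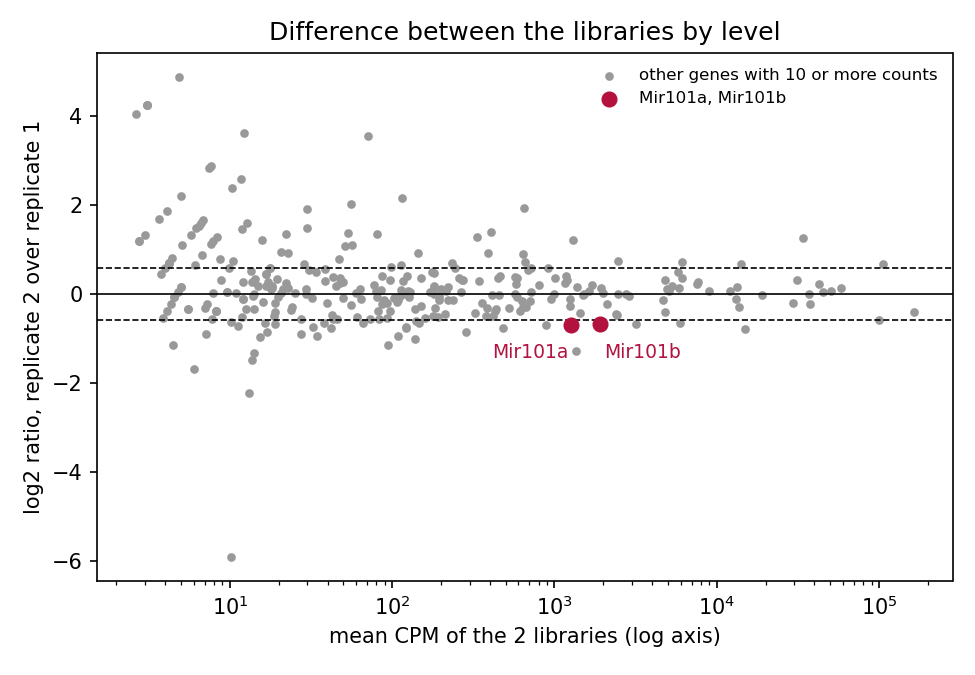
Log2 ratio of replicate 2 over replicate 1 (vertical axis) against the mean CPM of the 2 libraries (horizontal log axis) for the 311 genes with 10 or more counts, with dashed lines at 1.5-fold. Mir101a and Mir101b lie side by side at -0.70 and -0.69, below the lower dashed line, where 36 of the 311 genes lie.

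Markers of the cell types in muscle tissue also differed between the libraries. The 9 skeletal muscle genes summed to 52158 CPM in replicate 2 and 22884 in replicate 1, and none was at 0. Mir206 alone gave 48078 CPM of the sum in replicate 2 and 20325 CPM in replicate 1, and the 9 genes had no common direction, with a median log2 ratio of 0.04. By over 1.5-fold, Mir206 and Mir499 were higher in replicate 2, and Mir133a-2 (log2 ratio -0.91) and Mir133b (-0.86) were lower, both on under 50 counts and with counting intervals that include 1. Of the 9, 6 share 20 or more bases with another gene, Mir133a-2 and Mir133b among them. Reads that match several places are not in their counts. The sum is therefore not the level of all muscle microRNAs, and the ratios of Mir133a-2 and Mir133b are uncertain. In replicate 2, Mir126a of endothelium stood at 129798 CPM, against 81286 CPM in replicate 1. The smooth muscle pair Mir143 and Mir145a reached a sum of 81451 CPM in replicate 2, against 123068 CPM in replicate 1. The erythroid pair Mir451a and Mir144 summed to 4688 CPM in replicate 2 and 6176 in replicate 1. The 3 leukocyte genes Mir142, Mir223 and Mir150 summed to 1576 CPM in replicate 2 and 1478 in replicate 1, of which Mir150 gave 1260 CPM in replicate 2 and 1068 CPM in replicate 1. Mir142 (-0.45) and Mir223 (-0.27) had negative log2 ratios, so the median log2 ratio of the 3 was -0.27, opposite in sign to the change of the sum. Mir122 of liver was low, at 29.9 CPM in replicate 2, against 15.7 CPM in replicate 1. The 6 neural genes all share 20 or more bases with another gene, so their counts, at 0 in both libraries for 5 of them, set no limit on neural microRNAs. Both smooth muscle genes and both erythroid genes were lower in replicate 2, as the miR-101 genes were, and Mir126a was higher. The part of these differences in the miR-101 ratios was not tested, and in whole tissue fewer cells of a type and less microRNA per cell cannot be told apart.

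In the order of all genes by mean CPM, Mir101b stood at rank 44 and Mir101a at rank 53. The order rests on assigned reads only, so genes whose reads match several places can stand too low in it. Of the 2202 genes, 1653 had no count in either library. Mir101b was at rank 49 in replicate 2 and 40 in replicate 1, and Mir101a at rank 61 in replicate 2 and 49 in replicate 1. Next above Mir101b came Mir361, Mir125a and Mir379, between 1923 and 2118 CPM, and next below it Mir196a-2, Mir98 and Mir93, between 1523 and 1701 CPM. Next above Mir101a came Mir16-1, Mir29c and Mir499, between 1301 and 1386 CPM, and next below it Mir27a, Mir17 and Mir155, between 1189 and 1256 CPM. These 12 neighbours were picked for nearness in mean CPM. None differed from its member by more than the sum of the 2 SDs, which could hardly come out otherwise after that choice. By the sum of the SDs 22 genes, between ranks 34 and 58, were within the spread of Mir101b, and 26 genes, between ranks 38 and 73, within that of Mir101a. The SDs hold the difference between the libraries, so this measure does not compare levels within a library. Of the neighbours, Mir196a-2, Mir16-1, Mir29c and Mir27a share 20 or more bases with another gene, and their counts are uncertain. Mir101a and Mir101b share 20 bases with each other and come under the same rule.

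The genes nearest in level in both libraries were sought by the distance of log2(CPM + 1) over the 2 libraries. For Mir101a they were Mir17 (0.304), Mir15a (0.356) and Mir29c (0.418). Mir17 belongs to the oncogenic miR-17 to miR-92 cluster, and had 1125 CPM in replicate 2 and 1360 CPM in replicate 1. Mir29c, of a family that represses collagens, was lower in replicate 2 by more than the miR-101 genes, with 789 CPM in replicate 2 and 1935 CPM in replicate 1, a log2 ratio of -1.29. For Mir101b the nearest were Mir361 (0.419), Mir125a (0.510) and Mir140 (0.521). Mir140, a microRNA of cartilage, had 2018 CPM in replicate 2 and 2779 CPM in replicate 1. With 2 libraries this measure reflects level more than pattern.

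**Figure D3:**
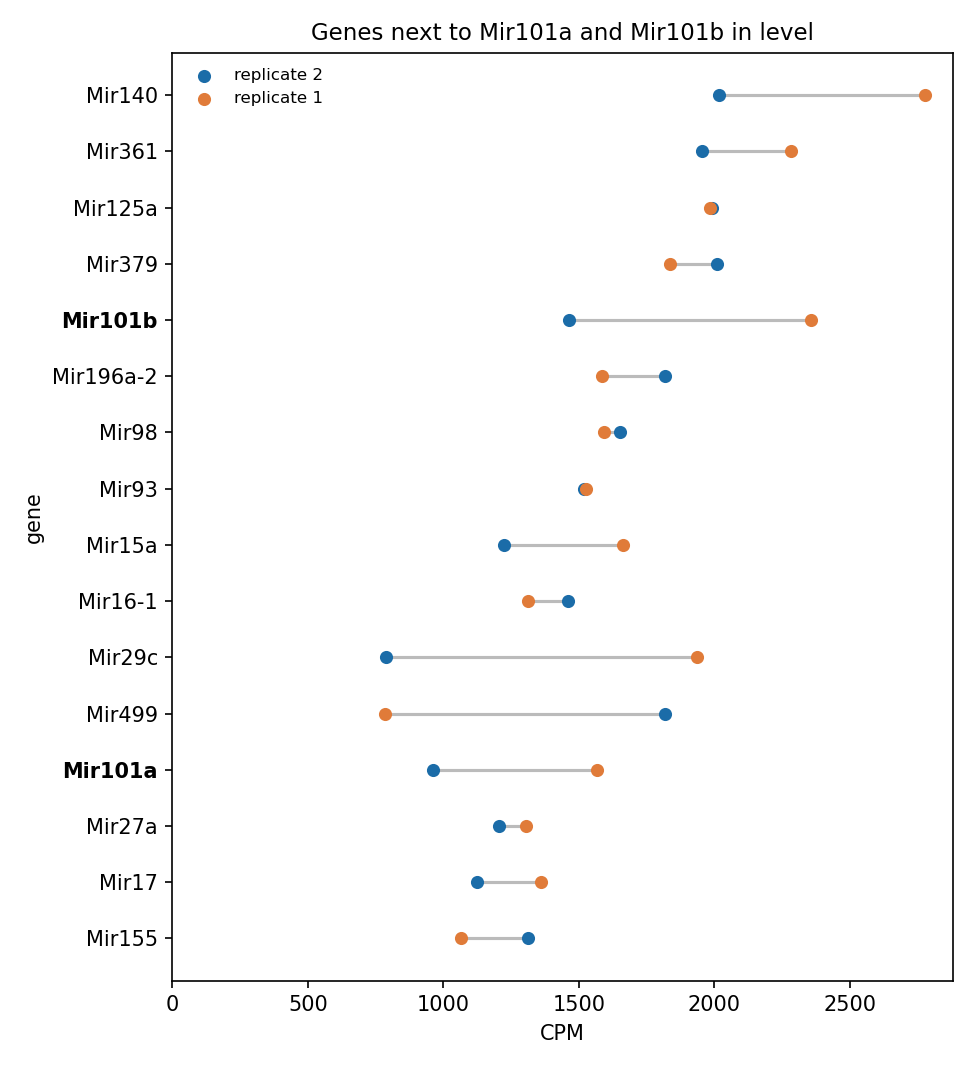
CPM in replicate 2 and replicate 1 (horizontal axis) of Mir101a and Mir101b, in bold, and of the genes next to them in mean CPM or nearest in both libraries, in order of mean CPM from top to bottom. The lines of Mir101a and Mir101b run the same way, with replicate 2 lower (963 and 1463 CPM) than replicate 1 (1569 and 2358 CPM).

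No other mature microRNA of the 1738 in RefSeq had the seed of a miR-101 strand, and 3 held 6 bases in a row of a 3p seed within their own. miR-144-3p, printed above, shares ACAGUA with miR-101a-3p at bases 2 to 7. Its gene Mir144, which is expressed with Mir451a in red blood cell precursors, had 577 CPM in replicate 2 and 711 CPM in replicate 1, a mean of 644 ± 94.3 CPM (SD, n = 2). The mean of Mir101a and Mir101b together was 4.93 times that of Mir144. The ratio of replicate 2 over replicate 1 was 0.812 for Mir144 (0.730 to 0.906), nearer to 1 than that of either miR-101 gene, and neither of their intervals overlapped that of Mir144. Its neighbour Mir451a had 4110 CPM in replicate 2 and 5465 CPM in replicate 1, and Mir451b had no count in either. miR-139-5p holds UACAGU, as the seed of miR-101b-3p does but 1 base further in, and Mir139 had 8364 CPM in replicate 2 and 7002 CPM in replicate 1. miR-582-5p holds the same 6 bases at bases 2 to 7, and Mir582 had 3 counts in replicate 2 and 2 in replicate 1.

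Other microRNAs reported to repress Ezh2 covered a wide range of levels. The list held 9 genes, of which 6 had 10 or more counts and 3, the miR-124 genes, had none in either library. The miR-124 genes share a run of 32 bases, so reads of their mature strand can match several places, and the 0 counts set no limit on miR-124. Mir26b led with 45952 CPM in replicate 2 and 39663 CPM in replicate 1, a mean of 42807 ± 4447 CPM (SD, n = 2). The miR-26 family represses Ezh2 during the differentiation of mouse myoblasts. Mir26a-1, with 111 counts in replicate 2 and 24 in replicate 1, and Mir26a-2, with 176 in replicate 2 and 19 in replicate 1, share their mature strand, and reads that match both are not in these counts. Mir214, which acts with Ezh2 in a feedback loop in mouse muscle cells, had 853 CPM in replicate 2 and 575 CPM in replicate 1. Mir138-1 and Mir138-2, whose action on Ezh2 is known from human cells, averaged 24.1 ± 3.57 and 14.2 ± 2.35 CPM (SD, n = 2), and they too share sequence.

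None of the 6 measured Ezh2 genes of this list was lower in replicate 2 by over 1.5-fold, and 1, Mir26a-2, was higher by over that fold, against 11.6% lower and 21.2% higher among all 311 genes. The counting interval lay above 1 for 3 of the 6, Mir26b, Mir214 and Mir26a-2, and below 1 for none, against 24.8% above and 19.6% below among all 311. With 6 genes these counts are given as a description and nothing is read from them about the list. Their median log2 ratio was 0.35, against 0.05 over all 311 genes. By mean CPM, Mir101a and Mir101b lay between Mir26b and Mir214, and across libraries the SDs of Mir101a and Mir214 overlapped. Within each library Mir101a lay above Mir214 with no overlap of counting intervals. In replicate 2 these were 923 to 1004 CPM for Mir101a and 815 to 891 CPM for Mir214. In replicate 1 they were 1473 to 1669 CPM for Mir101a and 517 to 636 CPM for Mir214.

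**Figure D4:**
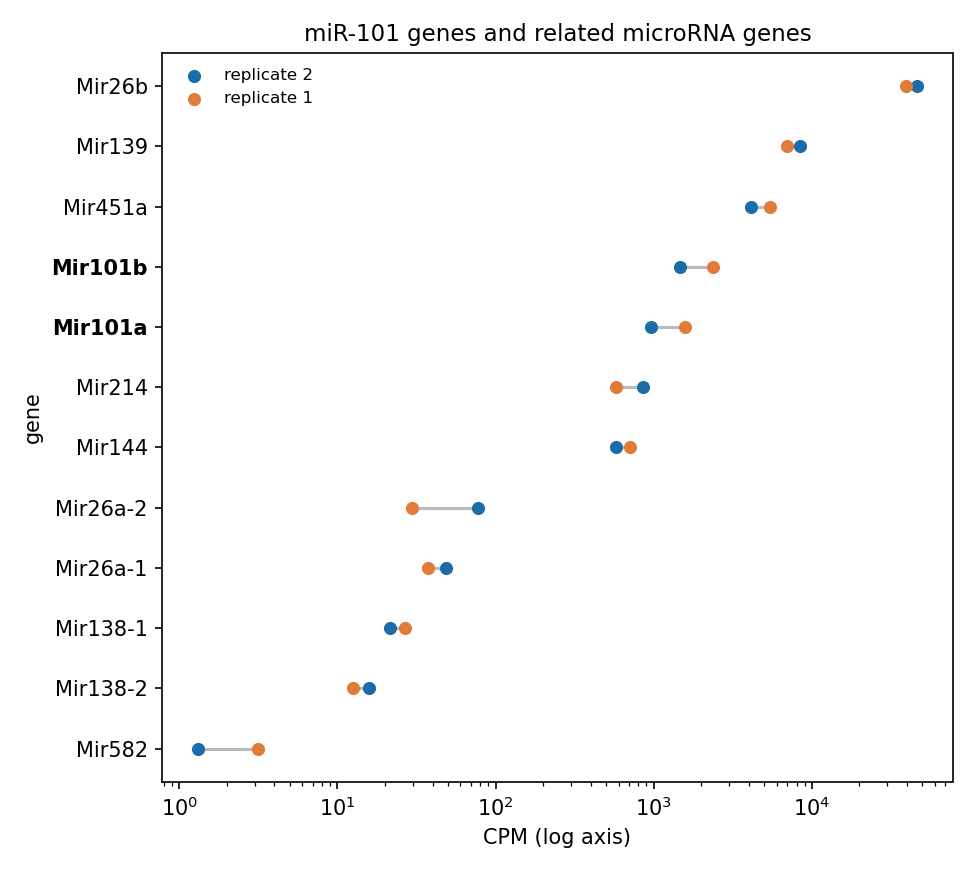
CPM in replicate 2 and replicate 1 (horizontal log axis) of Mir101a and Mir101b, in bold, of other microRNA genes reported to repress Ezh2, of Mir144 with Mir451a, and of Mir139 and Mir582, in order of mean CPM from top to bottom. Mir101c, Mir451b and the miR-124 genes, with no count in either library, are not drawn. Mir26b is the highest, and Mir101b and Mir101a lie above Mir214 and Mir144.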

How the data were processed

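The deposited tables hold raw counts per microRNA gene, made by the authors on mm10 with GENCODE M21, per the texts deposited with the tables, with 1 table for each library. Neither an aligner nor a counter is given in the sources used here. Of the 3 unnamed count columns the second was read as the gene's strand from its larger total, and used throughout. Rows without a gene were left out of the totals: multi-mapping reads (74.4% in replicate 2 and 75.2% in replicate 1), unmapped reads (6.93% in replicate 2, 5.97% in replicate 1) and reads with no feature (2.48% in replicate 2, 1.62% in replicate 1). All 2202 identifiers matched GENCODE M21.

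Counts were scaled to CPM. Ratios are replicate 2 over replicate 1 for the 311 genes with 10 or more counts, with exact conditional binomial intervals. Log2 values have a prior count of 0.5 scaled to library size. The interval step was run on counts simulated with counting error only. That checked the calculation and not how well the intervals suit these libraries. With 1 group no test between conditions exists. Runs shared between genes were sought in GENCODE transcripts, not in the genome, and CAST alleles were not analysed here. Precursors were aligned globally with Biopython 1.88 and folded with RNAfold 2.7.2. Other tools were Python 3.11.15, scipy 1.17.1, and for scaling alternatives edgeR 4.0.16 and DESeq2 1.42.0.

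The members and lists were chosen with earlier results of these data known. Named genes are the members, the 3 genes on each side in mean CPM, the 3 nearest in both libraries, related seeds, hosts and the lists.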

Additional observations from a re-analysis of the deposited data

How the results depend on the processing

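Leaving aside Mir101c, at 0 under every setting, and the values without a library, which with 2 libraries cannot move a mean by its SD, 41 values under alternatives were compared. Of these, 32 moved by less than their spread or kept their count within 1.5 times, 9 moved by more and none reversed. Among the 32 are the shares under counts that ignore strand and the log2 ratios under other prior counts. These could hardly move, so the 32 overstate how far the results were put to a test. With counts that ignore strand the means were 1808 CPM for Mir101a, 2728 for Mir101b and 4536 for their sum, because genes overlapping on opposite strands then left the total while the miR-101 counts stayed as they were. Per 1000000 of all reads of the library the means were 213 for Mir101a, 321 for Mir101b and 534 for the sum, and the log2 ratio of Mir101b was -0.78. The number of genes past 1.5-fold, 102 in all, was 318 of 549 with a minimum of 1 count and 55 of 226 with a minimum of 50, since more or fewer genes of low counts were then compared. Both measured members were past 1.5-fold, and below 1 by their interval, under TMM and DESeq2 size factors. The same held under both minimums and unstranded counts, but these leave the members' own counts as they were and could hardly change this.

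Leaving out each library in turn gave 963 to 1569 CPM for Mir101a, 1463 to 2358 CPM for Mir101b, and shares of Mir101b between 60.0 and 60.3%. Mir101c stayed at 0 in both. No paired analysis was possible because there is 1 group. The depth of replicate 1, 3.56 times below that of replicate 2, limits the proportion of the 2 genes to the intervals given. These cover counting error and not reads that match both genes.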
